A study of Mus musculus with 20 samples.

Results

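The RNA of 10 effector and regulatory cytokine genes, *Ifng*, *Tnf*, *Il2*, *Il10*, *Il21*, *Csf2*, *Lta*, *Ltb*, *Tgfb1* and *Tgfb3*, was followed through donor T cells after an allogeneic transplant. The genes were given by name and each matched 1 row of the 17101 genes in the table of normalized counts. RNA-Seq covered 20 libraries of donor T cells sorted from the spleen of transplanted mice on day +10, with 4 libraries in each of 5 groups. The groups were CD4+ and CD8+ cells of WT donors, and CD4+, CD8+ and CD4+CD8+ double-positive (DP) cells of KO donors. WT DP cells were not analysed here. KO donors carried *Dnmt3a* flanked by loxP sites together with Cre under the *Cd4* promoter (genotype DNMT3a KO, CD4-Cre 2loxP), on the B6 background, and WT donors were littermates without the deletion. Donors were 6 to 12 weeks old by the labels. Recipients were irradiated F1 (B6 by DBA/2, B6D2F1) females of 8 to 12 weeks that received bone marrow along with the T cells. The *Cd4* promoter drives Cre in the thymus before the subsets part, so the CD4+ and CD8+ cells both lack the floxed part. Sorting leaves a minority of other cells, and in bulk RNA fewer producing cells and less RNA per cell cannot be told apart. Between 37547651 and 46966318 reads fell on genes in each library. The KO DP library of animal 3 stood apart, with reads on 11783 genes where the other KO libraries had reads on 13203 to 14198 and WT libraries on 14421 to 14677.

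Cytokines take part in both the damage and the restraint of graft-versus-host disease. Interferon gamma (*Ifng*) and tumor necrosis factor (*Tnf*) arm macrophages and injure gut and marrow, while interleukin 2 (*Il2*), interleukin 21 (*Il21*) and GM-CSF (*Csf2*) feed T cells, B cells and myeloid cells. Interleukin 10 (*Il10*) and the TGF-beta proteins (*Tgfb1*, *Tgfb3*) dampen these responses, and TGF-beta is secreted in a latent form that must be activated outside the cell.

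The labels were checked first. *Dnmt3a* had 1658, 1628, 1639.6 and 1385 normalized counts in KO CD4+ cells of animals 1, 2, 3 and 4, against 4906, 4690.0, 4839 and 5171 in WT CD4+ cells of animals 2, 3, 5 and 6. All values below are given in this order of animals. In CD8+ cells it had 2007, 1287, 1515 and 1664 in KO and 3549, 3542, 3756 and 3812 in WT, and in KO DP cells 1571, 1021, 650.4 and 1332. Every KO library lay under every WT library, although loxP sites flank only a part of the gene and the count covers all of it. The log2 fold change was -1.64 (SE 0.08, adjusted p = 1.26e-05) in CD4+ cells and -1.20 (SE 0.12, adjusted p = 0.000654) in CD8+ cells. The T cell receptor component *Cd3e* was between 16885 and 29178 in the 20 libraries. *Cd4* was at 61586 ± 14351 (SD, n = 4) in KO CD4+ and 12123 ± 2756 in KO DP cells, and KO DP cells held as much *Cd8a* (54657 ± 11150) as KO CD8+ cells (55471 ± 10228). A departure from the labels was seen in KO CD4+ cells of animal 1, with 3771 normalized counts of *Cd8a* and 4515 of *Cd8b1*, where the other KO CD4+ libraries had 78.3 to 227 and 549.9 to 788. *Cd4* was 12.2, 79.6, 9.88 and 28.7 in WT CD8+ cells but 302, 336, 349 and 458 in their KO counterparts (log2 fold change 3.88, SE 0.56, adjusted p = 0.00263).

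Inflammatory cytokine RNA was lower in KO than in WT donor cells where it differed. *Ifng* was lower in both subsets, *Il21* and *Csf2* in CD4+ cells, and *Tnf* in CD8+ cells. *Tgfb3* was the exception, with more RNA in KO cells of both subsets. The CD8+ calls of *Ifng* and *Tgfb3* held without any 1 library and in the fit of all 20 libraries. They were lost in the replicate block fit of numbers 2 and 3, with log2 fold changes of -1.52 and 1.89. That fit has 2 animals per group, and KO and WT animals of the same number are different animals. Each of the other calls was lost in the fit of all 20 libraries, and each was lost on leaving out 1 of several libraries. For the other members no difference between KO and WT passed the threshold.

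*Ifng* encodes the cytokine that defines type 1 responses. In CD4+ cells its normalized counts were 4647, 5763, 7774 and 7219 in WT and 1836, 4761, 3438 and 3554 in KO. In CD8+ cells they were 10544, 10611, 11937 and 11556 in WT and 2014, 2523, 5370.2 and 3927 in KO. Animal 2 alone brought the KO CD4+ values over the lowest WT value, whereas the CD8+ groups did not overlap. KO DP cells spanned 2502, 3239.8, 9172 and 5439, with the library of animal 3 far above the rest. The log2 fold change between KO and WT was -0.95 (SE 0.26, adjusted p = 0.0322) in CD4+ cells and -1.79 (SE 0.26, adjusted p = 0.00256) in CD8+ cells, that is 1.94-fold and 3.46-fold lower. In CD4+ cells the call was lost without WT animal 3 (adjusted p = 0.0682), WT animal 5 (0.0866) or WT animal 6 (0.0993). The log2 fold change stayed about as large in these fits (-0.991, -0.847 and -0.882). In CD8+ cells the adjusted p stayed between 0.000458 and 0.0134 whichever library was left out.

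*Tnf*, *Lta* and *Ltb* encode a family of trimeric ligands and lie side by side. In the RefSeq annotation of GRCm38.p6 they fill 11072 bases of chromosome 17, with *Ltb* (35194507 to 35196305) on the plus strand and *Tnf* (35199367 to 35202007) and *Lta* (35203165 to 35205578) on the minus strand. *Tnf* had 1227, 1022, 1392 and 1549 normalized counts in WT CD4+ and 769, 392, 908 and 1364 in KO CD4+ cells. In CD8+ cells it had 486, 488, 537 and 546 in WT and 139, 114, 339.8 and 407 in KO, while KO DP cells had 182, 102, 562 and 694. Animals 1 and 2 were the low ones among the KO CD8+ and KO DP libraries, and every KO CD8+ library lay under every WT CD8+ library. KO and WT differed on the log2 scale by -1.24 (SE 0.38, adjusted p = 0.0405) in CD8+ and -0.71 (SE 0.31, adjusted p = 0.127) in CD4+ cells. The CD8+ call was lost without KO animal 1 (adjusted p = 0.0715), KO animal 2 (0.0725) or any WT animal (0.0844, 0.0874, 0.0955 and 0.0983), and edgeR gave 0.0717. Without KO animal 4 the CD4+ difference passed (adjusted p = 0.0382).

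Lymphotoxin alpha (*Lta*), which is secreted alone or held at the surface by lymphotoxin beta, had 390.0, 342, 292 and 353 normalized counts in WT and 337, 140.4, 241 and 234 in KO CD4+ cells. In CD8+ cells it had 43.6, 43.2, 53.9 and 52.8 in WT and 79.2, 20.6, 39.3 and 54.9 in KO. The CD4+ groups overlapped through KO animal 1, and the log2 fold change was -0.59 (SE 0.25, adjusted p = 0.116). Its CD8+ difference was -0.15 (95% confidence interval -1.07 to 0.78). *Lta* was at 0 in the DP library of animal 3, against 46.1 to 50.7 in the other KO DP libraries. *Ltb*, the surface anchor that shapes lymphoid tissue, had 18981, 14062, 18277 and 20021 normalized counts in WT and 20789, 11958, 17256 and 17645 in KO CD4+ cells. The CD8+ libraries had 10023, 9098, 10018 and 11028 in WT and 15136, 8106, 10807 and 14126 in KO, and the groups overlapped in both subsets. Its log2 fold changes were -0.09 (95% confidence interval -0.46 to 0.27) in CD4+ and 0.22 (-0.17 to 0.62) in CD8+ cells, so a 2-fold difference lay outside both intervals. Without KO animal 2 the CD8+ difference of *Ltb* passed (adjusted p = 0.0443). KO DP cells had 14639, 8183, 17397 and 13957.

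**Figure D1:**
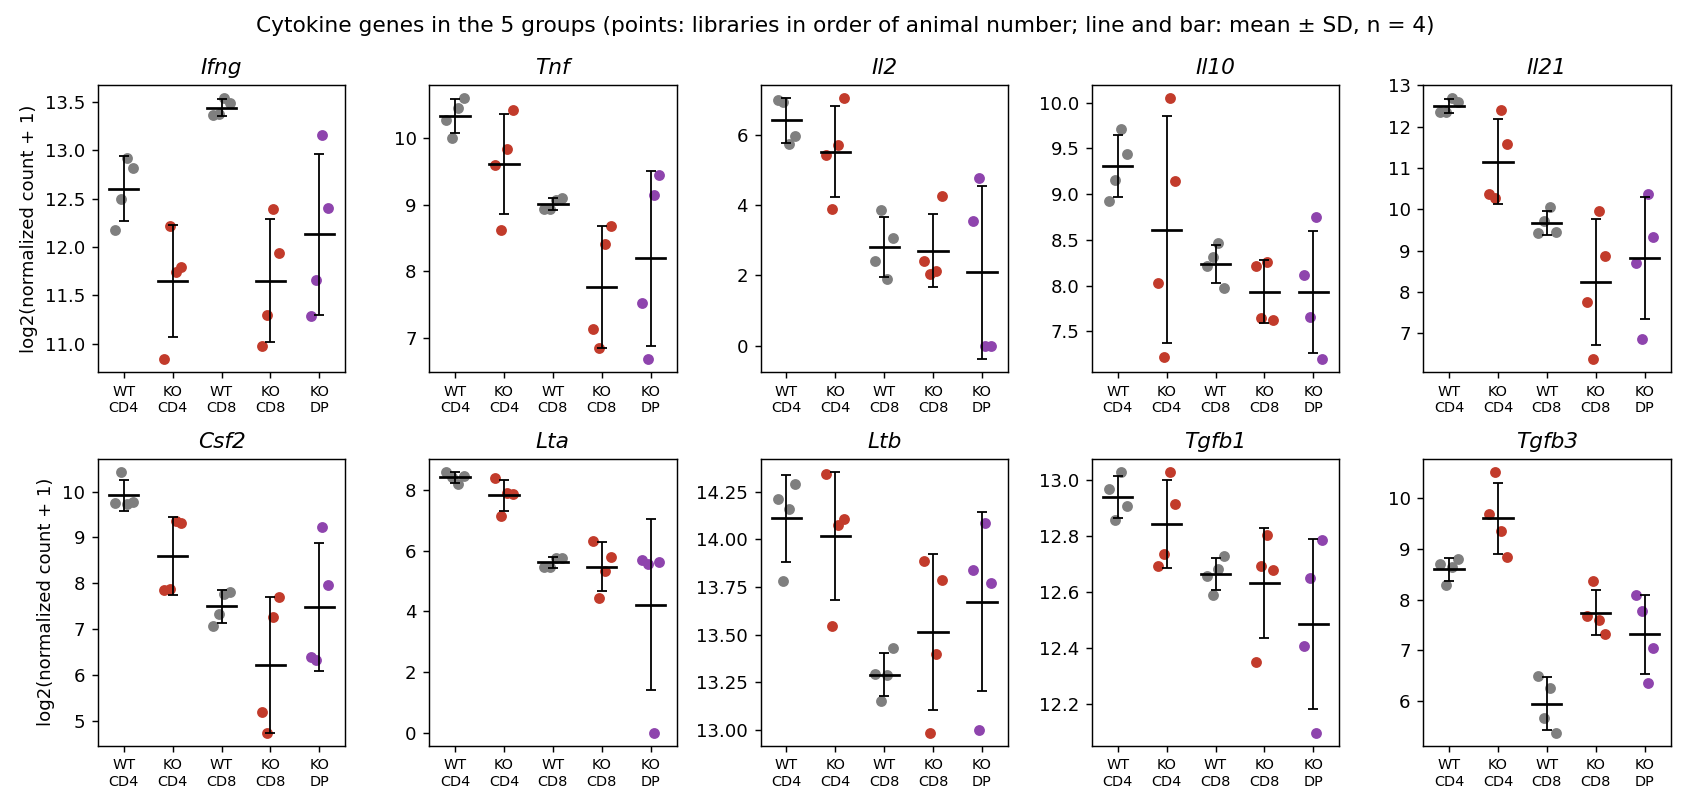
Normalized counts of the 10 cytokine genes on a log2 scale (vertical axis, after adding 1) in the 5 groups, with 1 point per library in the order of animal numbers and the mean ± SD (n = 4) in black. WT CD8+ libraries lie together at 10544 to 11937 for *Ifng*, and KO libraries spread widely for *Il21* and *Csf2*.

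The next members serve T cell growth and help. *Il2* (chromosome 3, 37120713 to 37125954) and *Il21* (37222759 to 37232636) are neighbors, 96804 bases apart. *Il2*, the growth factor of activated T cells, had 125, 120.2, 52.4 and 61.6 normalized counts in WT and 42.1, 13.7, 51.6 and 129.6 in KO CD4+ cells, and the groups overlapped (log2 fold change -0.89, SE 0.60, adjusted p = 0.309). Its mean was under 10 in WT CD8+ (4.36, 13.4, 2.7 and 7.42), KO CD8+ (4.28, 3.09, 3.36 and 18) and KO DP cells (10.8, 26.5, 0 and 0), so it stood at the detection limit there and was not tested between KO and WT CD8+ cells.

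*Il21*, the helper cytokine of germinal center B cells and of CD8+ cells under chronic stimulation, had 5268, 5252, 6638 and 6192 normalized counts in WT and 1329, 1231, 5460.1 and 3042 in KO CD4+ cells. Animal 3 reached the WT range, and animals 1 and 2 were the lowest. On the log2 scale KO lay at -1.35 against WT (SE 0.40, adjusted p = 0.0418). In CD8+ cells the counts were 694, 843, 1069 and 699 in WT and 217, 82.3, 991 and 472 in KO, while KO DP cells had 419, 115, 1333 and 645. The same animals were low and high in all KO subsets, and the KO and WT CD8+ groups overlapped (log2 fold change -1.42, SE 0.62, adjusted p = 0.121). Leaving out animal 3 brought the CD8+ difference to -1.99 (adjusted p = 0.0162) and the CD4+ difference to -1.77 (adjusted p = 0.00371). The CD4+ call was lost without KO animal 1 (adjusted p = 0.101), KO animal 2 (0.0621) or any WT animal (0.0809, 0.0835, 0.0981 and 0.109), and with edgeR (0.0936) or DESeq2 (0.104).

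GM-CSF (*Csf2*) links T cells to myeloid cells. It had 858, 1382, 846 and 878 normalized counts in WT and 231, 234, 655 and 637 in KO CD4+ cells, without overlap. In CD8+ cells it had 133, 160.2, 217 and 224 in WT and 35.3, 25.7, 153 and 207 in KO, while KO DP cells had 83.1, 79.4, 601 and 250.2. Animals 1 and 2 were again low and animals 3 and 4 high in each KO subset. The difference on the log2 scale was -1.32 (SE 0.36, adjusted p = 0.0326) in CD4+ and -1.28 (SE 0.63, adjusted p = 0.162) in CD8+ cells. The CD4+ call was lost without KO animal 1 (adjusted p = 0.0761) or any WT animal (0.0651, 0.092, 0.0656 and 0.0809).

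Among the regulatory cytokines, *Tgfb3* differed between genotypes. It had 413, 309, 395 and 444 normalized counts in WT and 816, 1458, 651 and 458 in KO CD4+ cells, and 89.9, 49.9, 75.5 and 40.8 in WT and 205, 330.4, 192 and 159 in KO CD8+ cells. In neither subset did the groups overlap, and animal 2, low for *Il21* and *Csf2*, was the highest for *Tgfb3* in CD4+ and CD8+ cells. The log2 fold change was 1.00 (SE 0.30, adjusted p = 0.0438) in CD4+ and 1.79 (SE 0.32, adjusted p = 0.0057) in CD8+ cells, that is 1.99-fold and 3.45-fold higher in KO. KO DP cells had 269.7, 219, 80.7 and 132. The CD8+ call held without any 1 library (adjusted p 0.00634 to 0.0226). The CD4+ call was lost without KO animal 1 (adjusted p = 0.0921) or any WT animal (0.0844, 0.112, 0.0901 and 0.0899), and with libraries scaled to a common 75th percentile (0.0597).

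*Tgfb1*, the form of TGF-beta that T cells make most, was steady. It lay between 6621 and 8358 normalized counts in the 8 CD4+ libraries, between 5216 and 7156 in the 8 CD8+ libraries and between 4381 and 7066 in KO DP cells. The log2 fold change between KO and WT was -0.10 (95% confidence interval -0.29 to 0.10) in CD4+ and -0.03 (-0.25 to 0.18) in CD8+ cells. *Il10*, which restrains antigen-presenting cells, had 486, 569, 837 and 692 in WT and 259, 148, 1059 and 566 in KO CD4+ cells, and 295, 317, 352 and 249 in WT and 296, 199.7, 304 and 196 in KO CD8+ cells. The KO CD4+ libraries lay on both sides of the WT libraries, and neither the CD4+ (-0.70, SE 0.50, adjusted p = 0.335) nor the CD8+ log2 fold change (-0.30, SE 0.20, adjusted p = 0.296) passed. KO DP cells had 276, 200.1, 431 and 146.

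Over all members, 3 of 10 were lower and 1 was higher in KO than in WT CD4+ cells, where 9.77% of the 12391 genes tested were lower and 8.59% higher at the same threshold. Of the 9 members tested in CD8+ cells, 2 were lower and 1 was higher, against 12.5% and 12.6% of 12383 genes. The groups did not overlap for 2 of 10 members in CD4+ cells (25.6% of all genes) and for 3 of 9 in CD8+ cells (30.6%), shares close to those of all genes. The median log2 fold change of the members was -0.70 in CD4+ and -0.30 in CD8+ cells, beside -0.05 and -0.04 over all genes tested. With a common 75th percentile the median of all genes moved to -0.16 and -0.15, and the share of higher genes among those called fell to 18.1% (CD4+, before 46.8%) and 23.4% (CD8+, before 50.2%). The CD4+ and CD8+ comparisons use different libraries of the same animals. In the fit with all 20 libraries none of the CD4+ calls passed (adjusted p 0.0886 for *Ifng*, 0.207 for *Il21*, 0.196 for *Csf2* and 0.0949 for *Tgfb3*), nor did *Tnf* in CD8+ cells (0.105).

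**Figure D2:**
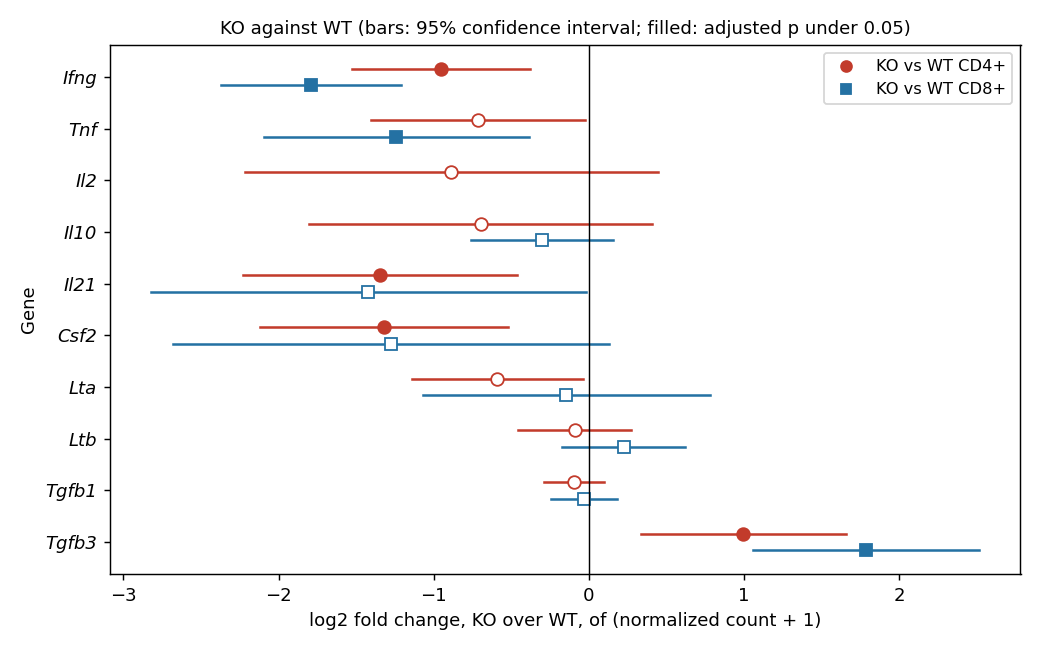
Log2 fold changes of the members between KO and WT (horizontal axis) in CD4+ (circles) and CD8+ cells (squares), with 95% confidence intervals as bars and filled symbols for an adjusted p under 0.05. *Ifng* and *Tgfb3* are filled in both subsets, at -0.95 and 1.00 in CD4+ and -1.79 and 1.79 in CD8+ cells, and *Il2* has no square because it was not tested in CD8+ cells.

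The genotype effect was set against itself in the 2 subsets by an interaction term over 16 libraries. None of the 10 members passed, and none had an unadjusted p under 0.05; of 12446 genes, 0% were higher and 0.0161% lower. DESeq2, edgeR and the replicate block fit also called 0 members. The larger *Ifng* difference in CD8+ cells corresponded to an interaction of 0.84 (95% confidence interval -0.02 to 1.70, adjusted p = 0.801). For *Tgfb3* it was -0.79 (-1.77 to 0.19, adjusted p = 0.922) and for *Tnf* 0.53 (-0.61 to 1.66, adjusted p = 0.9998). Calls made in 1 subset alone are therefore not shown to be particular to it.

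In WT donors the subsets were clearly divided. *Il2* was at the detection limit in WT CD8+ cells and entered this test through its CD4+ values, so that its difference (3.59, and 2.51 with a pseudocount of 10) is left out of the count. The other 9 members differed between WT CD4+ and WT CD8+ cells without overlap, 8 higher and 1 lower in CD4+ cells, where 22.3% of 12559 genes were higher and 22.2% lower and 41.8% did not overlap. *Ifng* was the member that was lower in CD4+ cells, with a log2 difference of -0.84 (SE 0.12, adjusted p = 0.000102). The log2 difference was 2.84 for *Il21*, 2.81 for *Lta*, 2.65 for *Tgfb3* and 2.42 for *Csf2*. *Tnf* (1.32), *Il10* (1.07), *Ltb* (0.82) and *Tgfb1* (0.28) differed less. In the fit with all 20 libraries the calls of *Ifng*, *Tnf*, *Il10* and *Tgfb1* were lost (adjusted p 0.104 to 0.17).

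Fewer members were called between the KO subsets. Between KO CD4+ and KO CD8+ cells, *Lta* (log2 difference 2.36, SE 0.44, adjusted p = 0.0184) and *Tgfb3* (1.85, SE 0.35, adjusted p = 0.0197) were higher in CD4+ cells and no member was lower, where 2.73% of 12189 genes were higher and 1.48% lower. The *Lta* call was lost without KO CD4+ animal 1 (adjusted p = 0.0595), 3 (0.0629) or 4 (0.0561), and the *Tgfb3* call without KO CD4+ animal 1 (0.0574) or 3 (0.0506) or KO CD8+ animal 4 (0.0535). The fit with all 20 libraries did not call *Lta* either (0.123) and called *Tnf* (0.0308), *Il21* (0.00993) and *Csf2* (0.0273). Calls were gained for *Tnf* (adjusted p = 0.0377) without KO CD4+ animal 2 and for *Il21* (0.0275) without KO CD8+ animal 3. *Il2* was at the detection limit in KO CD8+ cells, and its difference is not read here. KO libraries of the same animal deviated alike (r 0.412 to 0.498 between CD4+ and CD8+ cells), and with the animal as a block (replicate block) 7 of the 9 members other than *Il2* were called, all higher in CD4+ cells, where the same fit found 10.2% of genes higher and 8.68% lower. The adjusted p was 0.000155 for *Tnf*, 4.66e-05 for *Il21*, 0.000336 for *Csf2*, 0.000975 for *Ltb* and 0.0495 for *Tgfb1*. Within each of the 4 KO animals these genes, *Lta* and *Tgfb3* were higher in CD4+ than in CD8+ cells, by 2.46 to 3.89 on the log2 scale for *Il21* and 1.61 to 3.13 for *Csf2*. *Il10* did not pass in either fit (log2 difference 0.68, 95% confidence interval -0.50 to 1.86, adjusted p = 0.633 and 0.233) and was higher in CD4+ cells of 2 of 4 KO animals. *Ifng* differed by -0.13, 0.92, -0.64 and -0.14 in KO animals 1 to 4, and by -1.18, -0.88, -0.62 and -0.68 in WT animals 2, 3, 5 and 6. Its KO group difference was 0.00 (95% confidence interval -0.77 to 0.77), and its sign depended on the library left out.

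No difference between DP and CD8+ cells of KO donors could be called in these genes, which does not show them to be alike. None of the 9 members tested passed, and none had an unadjusted p under 0.05, where 0.00823% of 12153 genes were higher and 0% lower. The replicate block fit, edgeR and DESeq2 also called 0 members. The intervals were wide: the log2 difference was 0.48 (95% confidence interval -0.46 to 1.41) for *Ifng*, 1.26 (-0.60 to 3.12) for *Csf2* and -0.42 (-1.34 to 0.50) for *Tgfb3*. In each of the 4 animals DP cells had more *Ifng* (by 0.31, 0.36, 0.77 and 0.47), *Il21* (by 0.43 to 0.94) and *Csf2* (by 0.27 to 1.97) than CD8+ cells of the same animal, and in the replicate block fit the adjusted p was 0.406 for each of them. Without the DP library of animal 3 the log2 difference was 0.14 for *Ifng*, 0.05 for *Il21*, 0.68 for *Csf2*, 0.16 for *Lta* and -0.10 for *Tgfb3*, and *Lta* had been -1.25 with it.

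Against KO CD4+ cells, DP cells had less *Tgfb3* (log2 difference -2.28, SE 0.44, adjusted p = 0.0321), and no other member passed in this fit, where 0.682% of 12175 genes were higher and 1.26% lower. The call was lost without KO CD4+ animal 1 (adjusted p = 0.0943), 2 (0.0798) or 3 (0.0923), or KO DP animal 2 (0.0569) or 4 (0.067). Without KO DP animal 3, whose *Lta* count was 0, *Lta* passed (log2 difference -2.20, adjusted p = 0.0179), as it did with a pseudocount of 10 (0.0442), DESeq2 (0.0124) and the fit of all 20 libraries (0.00947), and *Tgfb3* still passed (-1.96, adjusted p = 0.0433). In the replicate block fit *Tnf* (-1.42, adjusted p = 0.0258) and *Il21* (-2.34, adjusted p = 0.006) were also lower in DP cells, where that fit found 2.65% of genes higher and 4.41% lower, and *Il21* also passed in the fit of all 20 libraries (0.0297). *Il21*, *Tnf*, *Csf2*, *Lta*, *Tgfb1* and *Tgfb3* were lower in DP than in CD4+ cells of all 4 animals.

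Levels of the genes were compared per kb of exon, since longer transcripts collect more reads. *Ltb* led in 4 of the 5 groups, with 16288 ± 2389 normalized counts per kb (SD, n = 4) in WT CD4+ cells and 10999 ± 2932 in KO CD8+ cells. In WT CD8+ cells *Ifng* (9225 ± 573) and *Ltb* (9171 ± 719.6) stood together at the top, and their difference was within the spread. *Ifng* was at 5249 ± 1172 per kb in WT CD4+, 2807 ± 992 in KO CD4+, 2858 ± 1247.5 in KO CD8+ and 4205 ± 2475 in KO DP cells. In the 3 KO groups its spread covered the level of *Tgfb1*, which was 3393 ± 369.9, 2936 ± 379.5 and 2678 ± 539.8. *Il2* had the lowest mean in each group, from 94.6 ± 40.1 per kb in WT CD4+ cells to 7.35 ± 4.98 in WT CD8+ cells, but its spread met that of the next member, *Tgfb3* in the WT groups and *Lta* in the KO groups. *Tgfb3* had 115 ± 17.1 per kb in WT and 249.9 ± 128 in KO CD4+ cells.

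*Csf2*, *Il21* and *Tnf* also varied together among animals, but not all members did. Over the 20 libraries, after subtracting each group's mean on the log2 scale, Pearson's r was 0.857 between *Csf2* and *Il21*, 0.838 between *Csf2* and *Tnf* and 0.819 between *Il21* and *Tnf*. For *Tgfb3* it was -0.791 with *Csf2* and -0.726 with *Tnf*, and between *Lta* and *Ifng* it was -0.627. The points share animals, since 12 libraries come from 4 KO and 8 from 4 WT animals, and these values are a description. By the same measure the closest of the other 10708 genes with a mean of at least 50 were *Chchd4*, *Tbc1d31* and *Metrnl* for *Ifng* (r 0.912, 0.905 and 0.888), *Ptgfrn*, *Ltbp3* and *Mrgpre* for *Tnf* (0.955, 0.951 and 0.944) and *Cd200*, *Slc4a1* and *4930417O13Rik* for *Il21* (0.964, 0.964 and 0.962). *Csf2* was closest to *Akr1e1*, *Gabarapl1* and *Bcl2a1d* (0.952, 0.936 and 0.929), and *Tgfb3* to *Mta2*, *Nras* and *Arsb* (0.853, 0.847 and 0.847). The closest gene was *Plcd1* for *Lta* (0.972), *Tspan32* for *Ltb* (0.951), *Myadm* for *Tgfb1* (0.931), *Tnfaip8* for *Il10* (0.9) and *Tgm2* for *Il2* (0.757). The r values of *Lta* include the DP library of animal 3, which stood apart and where its count was 0.

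The lists of further genes that follow are to be read against all genes tested. Of these, 8.59% were higher and 9.77% lower in KO CD4+ cells and 12.6% and 12.5% in KO CD8+ cells. Lists can also hold genes that were at the detection limit in KO cells and entered through their WT values. The calls among other cytokines that T cells make were mostly lower in KO. Of 27 tested in CD4+ cells, 7 were lower and 0 higher (median log2 fold change -0.96, all genes -0.05). Of 24 in CD8+ cells, 6 were lower and 1 higher (median -0.65, all genes -0.04). Means were under 10 for *Il3* (1.43), *Il4* (8.14), *Areg* (6.02), *Il15* (6.73) and *Il1a* (7.25) in KO CD4+ cells. The same held for *Areg* (3.96), *Il15* (7.15) and *Ebi3* (7.58) in KO CD8+ cells. These genes were tested through their WT values and could only come out lower, so the counts and medians show no general drop. *Csf1*, the macrophage growth factor, was at 3155 ± 2191 in KO and 8593 ± 1270 for WT in the CD4+ subset (log2 fold change -1.78, SE 0.48, adjusted p = 0.0315) and at 903 ± 669 and 3301 ± 346 in CD8+ cells (-2.25, SE 0.53, adjusted p = 0.015). The BAFF gene *Tnfsf13b* was lower in both subsets (-1.33 and -2.61). *Cd70* (-1.79) and RANK ligand, *Tnfsf11* (-1.19), were lower in KO CD4+ cells, and *Spp1* (-1.61) and OX40 ligand, *Tnfsf4* (-1.48), in KO CD8+ cells.

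Calls among receptors for the members went both ways in KO CD4+ cells and were mostly higher in KO CD8+ cells, though the list's median was -0.05 there. Of 19 receptor genes, 3 were higher and 3 lower among KO CD4+ and 6 were higher and 1 lower among KO CD8+ cells, with medians of 0.16 and -0.05 (all genes 8.59% and 9.77%, then 12.6% and 12.5%). *Ifngr1*, the ligand-binding chain for interferon gamma, was at 35721 ± 8229 normalized counts in KO and 18682 ± 1815 for WT in the CD4+ subset (log2 fold change 0.91, SE 0.16, adjusted p = 0.00724) and at 29046 ± 7246 and 17424 ± 1498 in CD8+ cells (0.70, SE 0.18, adjusted p = 0.0216). *Csf2ra*, a chain of the GM-CSF receptor, was lower in both subsets (-1.60 and -1.97). *Il2rb* (0.52) was higher and *Tnfrsf14* (-0.53) lower in KO CD4+ cells, and the TGF-beta coreceptors *Eng* (2.05) and *Tgfbr3* (1.98) were higher in KO CD8+ cells.

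Further genes tether or activate latent TGF-beta or shed TNF from the cell surface. Of 13 tested in CD4+ cells 1 was higher and 0 lower, and of 10 in CD8+ cells 2 were higher and 1 lower, with medians of -0.06 and -0.03. These are counts of a few genes in lists where all genes would give about as many (8.59% and 9.77%, 12.6% and 12.5%). *Furin*, the protease that cleaves the TGF-beta precursor, was higher in KO cells of both subsets (0.54, adjusted p = 0.0391, and 0.52, adjusted p = 0.0294). *Adam10*, a sheddase, was higher in KO CD8+ cells (0.30, adjusted p = 0.00899).

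Signal carriers behind the receptors were mostly lower where called in KO CD4+ cells and went both ways in KO CD8+ cells. Among 23 JAK, STAT, SMAD, TRAF and NF-kappa-B genes, 1 was higher and 8 lower among KO CD4+ and 6 were higher and 5 lower among KO CD8+ cells (medians 0.01 and 0.00). *Jak3*, which serves the common gamma chain, was lower in both (-0.74 and -0.92), as was *Traf1* (-0.64 and -0.60). *Nfkb2* (-0.78) and *Tyk2* (-0.61) were lower in KO CD4+ cells. *Stat2* was lower (-0.64) and *Jak1* higher (0.61) in KO CD8+ cells. Of 21 targets and brakes that cytokines induce, 2 were higher and 4 lower among KO CD4+ and 0 were higher and 3 lower among KO CD8+ cells (medians -0.17 and -0.06), beside 8.59% and 9.77%, then 12.6% and 12.5%, of all genes. *Irf1*, induced by interferon gamma, was at 10396 ± 2029 in KO and 13682 ± 581 for WT in the CD4+ subset (-0.42, adjusted p = 0.0421) and at 11040 ± 497 and 15543 ± 1119 in CD8+ cells (-0.49, adjusted p = 0.00238). Other interferon gamma targets of the list, named after their values were seen, did not pass: *Gbp2* (-0.30 and 0.11), *Gbp3* (-0.29 and -0.06), *Igtp* (-0.08 and 0.14) and *Irgm1* (0.05 and 0.25) in CD4+ and CD8+ cells. *Tnfaip3* and *Nfkbiz*, targets of NF-kappa-B, were lower by the fits in both subsets (-0.75 and -0.90, -0.56 and -0.91), and *Skil*, a brake on SMADs, in KO CD4+ cells (-0.44).

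Of 32 transcription factors that act on cytokine genes, 0 were higher and 8 lower among KO CD4+ and 4 were higher and 9 lower among KO CD8+ cells (medians -0.28 and -0.38). *Fos* and *Jun*, which form AP-1, had the largest differences: *Fos* was at 532 ± 247 in KO and 4134 ± 1605 for WT in the CD4+ subset (-3.01, adjusted p = 0.00182) and *Jun* at 676 ± 264 and 4441 ± 1842 (-2.72, adjusted p = 0.00211). In CD8+ cells they differed by -3.00 and -2.97. *Eomes*, an activator of *Ifng* in CD8+ cells, was at 1769 ± 408 in KO and 3996 ± 606 in WT CD8+ cells (-1.19, SE 0.17, adjusted p = 0.00248), where *Nr4a1* was lower as well (-1.42). *Zeb2* (-1.08) and *Fosl2* (-0.87) were lower in KO CD4+ cells. Of 18 genes that act on the decay of AU-rich cytokine mRNA, 1 was higher and 4 lower among KO CD4+ and 5 were higher and 4 lower among KO CD8+ cells (medians -0.10 and -0.04), beside 8.59% and 9.77%, then 12.6% and 12.5%, of all genes. *Zfp36* (tristetraprolin), which speeds the decay of *Tnf* and *Csf2* mRNA, was lower in both (-0.92 and -0.77), while its relative *Zfp36l2* was higher in KO CD8+ cells (1.10). The exonuclease *Xrn1* was higher in both (0.40 and 0.73), *Rc3h2* (-0.60) and *Elavl1* (-0.48) were lower in KO CD4+ cells, and *Tial1* (-0.52) in KO CD8+ cells.

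Genes of stimulation and stress also differed between the genotypes. Of 20 immediate early genes tested, 10 were lower in KO CD4+ and 13 in KO CD8+ cells and 0 were higher (medians -0.82 and -0.94), led by *Fosb* (-4.30 and -4.12), *Fos*, *Jun* and *Nr4a2* (-1.93 and -2.29). The summed level of all 21 was 88675, 93826, 117368 and 121110 in WT and 68982, 59699, 93930 and 89684 in KO CD4+ cells, 71592, 75072, 86452 and 90470 in WT and 49356, 44927, 62759 and 57743 in KO CD8+ cells. KO DP cells had 50772, 45045, 81821 and 67258, with *Jund* as the most abundant gene in each group. Of 9 heat shock chaperones 3 were lower in KO cells of each subset. The inducible chaperone *Hspa1a* had 2221 to 10881 normalized counts in WT and 13.2 to 82.1 in KO CD4+ cells (-7.26, adjusted p = 0.000166), and 1435 to 6483 in WT and 4.12 to 57.8 in KO CD8+ cells (-7.42, adjusted p = 0.000593). *Hspa1b* (-7.08 and -7.05) and *Hsph1* (-1.01 and -0.88) were lower too, while the summed level of the list was 182014 ± 21168 in KO and 210966 ± 6446 for WT in the CD4+ subset and 186325 ± 26164 and 202151 ± 10177 in CD8+ cells. Immediate early and heat shock genes respond to stimulation and to handling of cells, and their part in the lower cytokine RNA was not tested.

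Markers of other cells differed in part as well. The sum of 9 neutrophil markers was 2307, 3092, 3412 and 3549 in WT and 71.7, 5.89, 4275 and 513.9 in KO CD4+ cells, 2329, 2723, 1856 and 4435 in WT and 177, 12.4, 2765 and 504 in KO CD8+ cells, with 137, 2.94, 7334 and 547 for KO DP cells. Animal 3, the highest KO animal for *Il21* in each subset, was also the highest in this sum, and animal 2 the lowest. *S100a9* was the most abundant of these markers in WT CD4+ cells (802), and 1 of 8 markers tested passed in CD4+ cells and 1 of 9 in CD8+ cells (*Ltf*, -5.10 and -4.03). Of 6 dendritic cell markers, 5 were lower in KO CD4+ and 4 in KO CD8+ cells, among them *Zbtb46* (-2.60) and *Xcr1* (-0.97) in CD4+ and *Xcr1* (-1.61) in CD8+ cells. *Clec9a*, counted among the 4, was at the detection limit in KO CD8+ cells (mean 6.81, against 108 in WT) and entered through its WT values. Of all genes tested, 9.77% were lower in KO CD4+ and 12.5% in KO CD8+ cells. Their summed level was 1498 ± 699 in KO and 1625 ± 149 for WT in the CD4+ subset and 7529 ± 3353 and 8361 ± 1434 in CD8+ cells, with *Itgax* as the most abundant. Of 9 monocyte and macrophage markers, 4 were lower in KO CD4+ and 1 in KO CD8+ cells (*Lyz2*, -3.03, *Mpeg1*, -1.63, and *Adgre1*, -1.17, in CD4+ and *Mpeg1*, -1.63, in CD8+ cells), and the summed level was 1630 ± 326 in KO and 3065 ± 474 for WT in the CD4+ subset and 4199 ± 1427 and 4693 ± 837 in CD8+ cells. *Itgam* was the most abundant of them in KO CD4+ and in CD8+ cells.

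Among natural killer and B cell markers the calls went both ways. Of 3 natural killer markers tested, 2 were higher in KO cells of each subset and 1, *Eomes*, was lower in CD8+ cells; the sum was 2220.5 ± 392 in WT and 15019 ± 15359 in KO CD4+ cells and 20612 ± 3499.6 and 90651 ± 95071 in CD8+ cells. *Gzma*, which CD8+ cells also express, made up most of it (2.80 in CD4+ and 1.93 in CD8+ cells), and *Klrb1c* was higher in both (1.85 and 2.73). The defining *Ncr1* was at 3 normalized counts or less in each CD4+ library, but not in every library of the WT CD8+, KO CD8+ and KO DP groups. Among KO animals the sum was highest in animal 2. Of 5 B and plasma cell markers tested, 2 were higher and 1 lower among KO CD4+ and 1 was higher among KO CD8+ cells, *Cd79b* in both (3.72 and 3.21). Their sum was 1892 ± 214 in KO and 1521 ± 226 for WT in the CD4+ subset and 2265 ± 421 and 537 ± 66.3 in CD8+ cells. The defining *Pax5* was at 3 or less in each KO library, but not in every library of either WT group. *Ms4a1* was at 3 or less in each WT, KO CD8+ and KO DP library, but not in every KO CD4+ library. Of the regulatory T cell markers, 0 of 6 tested were called in CD4+ and 0 of 5 in CD8+ cells, with sums of 29705 ± 5753 in KO and 33626 ± 1030 for WT in the CD4+ subset. T cell markers summed to 287600 ± 27843 in KO and 269069 ± 11916 for WT in the CD4+ subset and to 262270 ± 19354 and 253185 ± 6556 in CD8+ cells, with 0 of 10 called in CD4+ cells and *Cd247* (0.36) higher and *Cd3e* (-0.39) lower in KO CD8+ cells. The part of other cells in the cytokine differences was not tested.

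**Figure D3:**
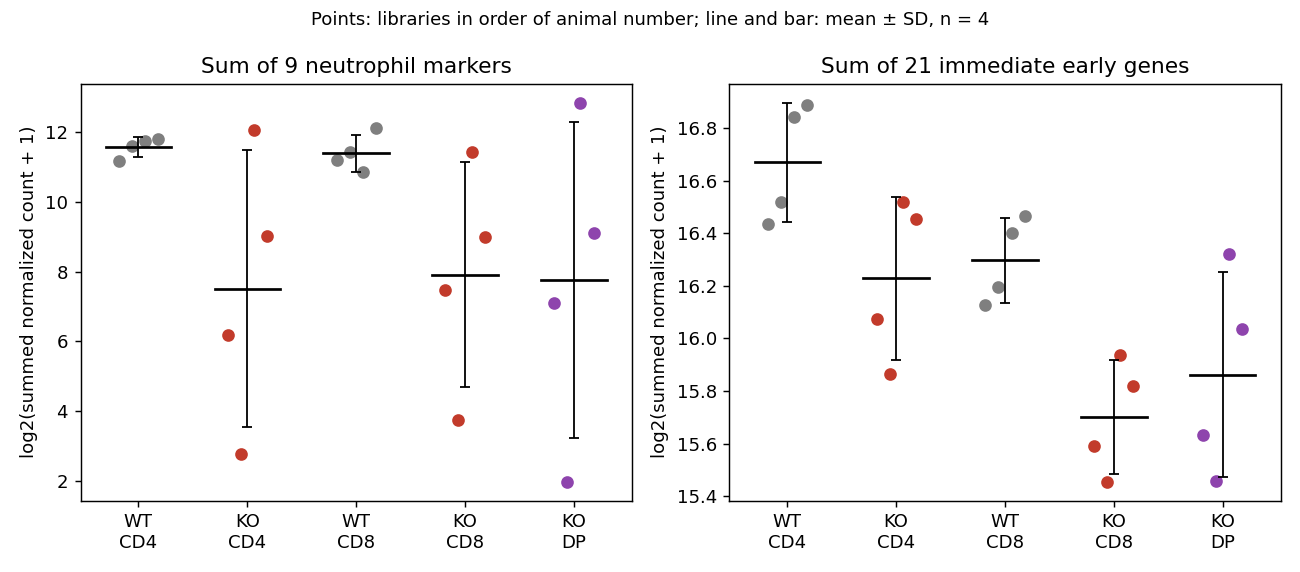
Summed normalized counts of 9 neutrophil markers and 21 immediate early genes on a log2 scale (vertical axes, after adding 1) in the 5 groups, 1 point per library in the order of animal numbers, with mean ± SD (n = 4). WT libraries lie between 1856 and 4435 for the neutrophil sum, and KO libraries spread from 2.94 to 7334.

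The starts of the cytokine genes were read for shared motifs because *Tnf*, *Il21* and *Csf2* varied together and *Ifng* had the clearest drop. The RefSeq promoter table of GRCm38.p6 (250 bases before to 50 after the start) held 8 of the members; *Il10* and *Tgfb3* had no entry. Both strands were searched for the TATA box TATAAA, the AP-1 pattern TGANTCA and the cyclic AMP element TGACGTCA. The core of NFAT and ETS sites, GGAAA, the T-box pattern TCACACC and a split pattern of GGGA and CC with any 4 bases between them, looser than the NF-kappa-B consensus, were searched too. TATAAA was found in 4 of 8 members (*Ifng*, *Tnf*, *Il2* and *Lta*), and in 8.62% of the 12411 promoters of genes in the table of counts. The *Lta* window (35205302 to 35205601) was placed at a start inside the annotated gene (35203165 to 35205578, minus strand). Its TATAAA thus lies within the gene and not before the gene's outer start. GGAAA was found in 7 of 8, and in 59.1% of all. The split pattern was found in 4 of 8 (*Tnf*, *Csf2*, *Ltb* and *Tgfb1*), and in 25.8% of all, and in *Csf2* and *Ltb* it overlapped a GGAAA. The AP-1, cyclic AMP and T-box patterns were in 0 of 8, and in 5.87%, 2.96% and 3.56% of all. The dinucleotide CG, the substrate of DNMT3a, occurred 2 times in *Il2*, 3 in *Csf2*, 5 in *Il21*, 7 in *Ifng* and *Ltb*, 10 in *Lta* and 11 in *Tnf*, and 30 times in *Tgfb1*, where the median promoter had 18 (quartiles 8 and 27). A match describes the letters in this window and shows no binding. The promoters of the 4 members named above are printed 5′ to 3′ on the strand of the gene, with matches in capitals (TTTCC is GGAAA on the other strand). *Ifng* is chr10:118440796-118441095 (plus), *Tnf* chr17:35201958-35202257 (minus), *Il21* chr3:37232587-37232886 (minus) and *Csf2* chr11:54249850-54250149 (minus).
Ifng: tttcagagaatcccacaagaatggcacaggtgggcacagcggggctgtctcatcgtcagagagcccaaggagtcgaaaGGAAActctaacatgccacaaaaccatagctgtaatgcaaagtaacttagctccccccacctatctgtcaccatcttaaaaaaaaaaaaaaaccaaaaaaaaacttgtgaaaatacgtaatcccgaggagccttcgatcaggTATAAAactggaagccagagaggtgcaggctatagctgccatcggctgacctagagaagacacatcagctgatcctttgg
Tnf: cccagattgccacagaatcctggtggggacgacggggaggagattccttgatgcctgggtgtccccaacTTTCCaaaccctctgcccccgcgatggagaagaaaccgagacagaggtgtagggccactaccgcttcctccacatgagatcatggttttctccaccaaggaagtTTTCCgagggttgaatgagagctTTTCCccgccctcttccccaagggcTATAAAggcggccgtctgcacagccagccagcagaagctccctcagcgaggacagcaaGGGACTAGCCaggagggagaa
Il21: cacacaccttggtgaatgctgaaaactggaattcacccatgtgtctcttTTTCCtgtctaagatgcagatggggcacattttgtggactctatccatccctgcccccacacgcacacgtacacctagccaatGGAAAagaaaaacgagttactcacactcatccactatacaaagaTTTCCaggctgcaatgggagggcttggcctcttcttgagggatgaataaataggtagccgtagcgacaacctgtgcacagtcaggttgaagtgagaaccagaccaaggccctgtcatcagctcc
Csf2: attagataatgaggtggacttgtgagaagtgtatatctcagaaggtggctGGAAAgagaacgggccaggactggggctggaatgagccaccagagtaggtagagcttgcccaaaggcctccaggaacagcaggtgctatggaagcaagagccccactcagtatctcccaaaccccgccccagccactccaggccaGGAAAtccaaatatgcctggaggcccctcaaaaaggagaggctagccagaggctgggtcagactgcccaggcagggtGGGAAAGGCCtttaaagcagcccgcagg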

How the data were processed

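The values were the normalized counts per gene (signal) of 20 RNA-Seq libraries as deposited: the authors aligned reads with STAR to mm10, counted them on exons with regard to strand, and divided each library by 1 DESeq2 size factor. Whole reads were recovered from these values (100% whole within 0.01), and the recovered factors differed from DESeq2 size factors by at most 4.1e-09. Libraries held 37547651 to 46966318 reads, and counting error covers only a part of the spread between animals. Each comparison was fitted in limma 3.58.1 (R 4.3.3) (eBayes with trend) after adding 1 and taking log2, 2-sided, keeping genes whose mean reached 10 over the libraries compared, with Benjamini-Hochberg adjustment over all genes tested and a threshold of 0.05. Members and lists were chosen with earlier results of these data known. Descriptions used Python 3.11.15.

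Results were recomputed with a pseudocount of 10, without the filter, with a minimum mean of 50, quantile normalization, a common 75th percentile, edgeR 4.0.16 (TMM) and DESeq2 1.42.0 on whole reads, a joint fit of 20 libraries, a replicate block and leaving out each library. Animal numbers come from the labels. After subtracting group means, libraries of the same number correlated at 0.412 to 0.498 between KO CD4+ and CD8+ cells and at 0.120 to 0.196 in WT, above other pairs (at most 0.116 and 0.011), and were read as paired within a genotype. No pair of libraries was a duplicate.

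Genes named were the 10 members, with *Dnmt3a*, *Cd4*, *Cd8a*, *Cd8b1* and *Cd3e* as label checks. From each companion list at most 4 called genes per KO and WT comparison with a mean of at least 50 were named, by size of the log2 fold change. Outside this rule, *Gbp2*, *Gbp3*, *Igtp* and *Irgm1* were named without a call, after their values were seen. The most abundant gene was named for the neutrophil, dendritic cell, monocyte and macrophage, and natural killer lists. Some markers at 3 normalized counts or less, and other cytokines at the detection limit in KO cells, were named too. The 3 genes most alike were named for *Ifng*, *Tnf*, *Il21*, *Csf2* and *Tgfb3*, and the closest gene for each other member. The result of 1 further marker list is not reported here.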

Additional observations from a re-analysis of the deposited data

Results flagged for a closer look

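Within each group of 4 libraries, the gap of the extreme library to its nearest neighbor was divided by the range on the log2 scale. This was done in 75 groups for the members and the label checks, and 6 stood out, where chance gives about 1 in 20. *Il2* was high in KO CD8+ animal 4 (0.833), at the detection limit. *Csf2* was high in WT CD4+ animal 3 (0.925), and *Lta* was at 0 in KO DP animal 3 (0.976). *Dnmt3a* was low in KO CD4+ animal 4 (0.9). *Cd8a* was high in WT CD8+ animal 5 (0.945), and *Cd8b1* was low in KO CD8+ animal 4 (0.863). Their causes were not tested.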

How the results depend on the processing

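The limma fits called 2274 genes and 4 members between KO and WT CD4+ cells, and 3118 and 3 in CD8+ cells. The joint fit called 1304 genes and 0 members in CD4+ and 2017 genes in CD8+ cells. A replicate block of numbers 2 and 3, which uses 2 animals per group, called 26 genes and 0 members in CD4+ and 89 and 0 in CD8+ cells. KO and WT animals of the same number were not alike (r 0.070 to 0.085 in CD4+, -0.002 to 0.099 in CD8+ cells). Without 1 library, 628 to 2963 genes and 0 to 5 members were called in CD4+, and 1633 to 4092 and 2 to 4 in CD8+ cells. The cause was not tested.

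Between WT subsets the joint fit called 1610 genes and 6 members in place of 5592 and 10, counts of members that include *Il2* at the detection limit in CD8+ cells. Between KO CD4+ and CD8+ cells (514 and 2), DESeq2 called 956 and 6, the joint fit 885 and 4, and the replicate block 2305 and 8, again with *Il2*. Leaving out 1 library gave 233 to 486 genes and 0 to 4 members. Between KO DP and CD8+ cells DESeq2 called 3 genes in place of 1. Between KO DP and CD4+ cells (237 and 1), a pseudocount of 10 gave 2 members and DESeq2 728 and 2. The joint fit gave 1459 and 4, counting *Il2*, which was at the detection limit in KO DP cells. The replicate block gave 860 and 3, and leaving out 1 library 84 to 279 and 0 to 2. For the interaction (2 genes), no filter gave 7, edgeR 1, DESeq2 21, the joint fit 1, the replicate block 173 and leaving out 1 library 0 to 5. The cause was not tested.

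Values that changed sign were those of members without a call. Between KO and WT they were *Ltb* in CD4+ cells (-0.202 to 0.065 without 1 library), *Lta* in CD8+ cells (0.269 with quantile normalization, 0.014 with edgeR, 0.012 with DESeq2, -0.429 to 0.202 without 1 library), *Ltb* in CD8+ cells (-0.029 with the replicate block) and *Tgfb1* in CD8+ cells (0.127 with the replicate block, -0.091 to 0.061 without 1 library). Between KO CD4+ and CD8+ cells it was *Ifng* (0.005 with quantile normalization, -0.226 to 0.268 without 1 library). Between KO DP and CD8+ cells they were *Il10* (0.065 with edgeR, 0.071 with DESeq2, -0.279 to 0.24 without 1 library), *Il21* (-0.049 to 1.229), *Ltb* (-0.018 to 0.384) and *Lta* (-1.741 to 0.157). The cause was not tested.

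With 4 libraries per group, intervals of members with a wide spread span more than 2-fold, and *Il2* in CD8+ cells is at the detection limit.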
